A study of Mus musculus with 6 samples.

Results

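The 10 genes described here encode the enzymes that write and remove DNA methylation, together with the GADD45 proteins: Dnmt1, Dnmt3a, Dnmt3b and Uhrf1 as writers, Tet1, Tet2 and Tet3 as erasers, and Gadd45a, Gadd45b and Gadd45g. They were selected by symbol from a table of 12623 genes in 17241 transcript rows. All 10 were found, in 22 rows, and all 10 passed the filter on low values. The 6 libraries were made from lung endothelial cells (EC) of C57BL/6N mice, 3 from infant animals in the second postnatal week and 3 from young adult animals between about the second and the third month of life. No treatment or transgene is named for either group, and nothing states how many animals stand behind a library, so p-values measure the spread between these samples. The sort gated live cells positive for both CD31 and CD34, and it excluded cells with PTPRC of leukocytes, LYVE1 or PDPN of lymphatic vessels, or LY76 of erythroid cells. The RNA was amplified from poly(A) tails without a mark of the strand and sequenced. Levels are RPKM, reads divided by transcript length in kilobases and by the mapped reads of the library, so they can be compared between genes, but not between cells of different RNA content. The comparison asked which transcripts change while lung vessels pass from growth to rest.

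DNA methylation is the addition of a methyl group to cytosine, in mammals mostly where a guanine follows. The de novo enzymes DNMT3A and DNMT3B set new marks, whereas DNMT1 copies existing marks onto the new strand after replication. UHRF1 binds hemimethylated sites and brings DNMT1 to it. TET enzymes oxidise methylcytosine, and base excision repair, started by the glycosylase TDG, can then replace it with cytosine. GADD45 proteins are small stress-induced proteins that act on p38 and JNK kinase signalling and on the cell cycle, and that have been connected with repair-coupled removal of DNA methylation.

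Differences between the libraries other than age bear on every value below. The study's methods describe female mice, yet the Y-linked gene Ddx3y stood between 16.5 and 21.9 RPKM in the 3 infant libraries and was listed at 0 in the 3 young adult libraries. The female transcript Xist stood between 7.6 and 8.7 RPKM in infant and between 12.5 and 15.6 RPKM in young adult libraries, so the infant libraries held transcripts of both sexes. Sex and age can therefore not be told apart in these libraries. None of the 10 genes lies on a sex chromosome. The endothelial markers Pecam1 (309.8 to 657.8 RPKM) and Cd34 (254.4 to 500.6 RPKM) were high in all 6 libraries, but differed with age. Pecam1 was higher in every young adult library. Cd34 was lower in each, with a log2 fold change of -0.64 (limma, adjusted p = 0.0301, not called). Of 16 endothelial markers, 13 had fitted changes above 0 and 3 below, and 2, Vwf and Tek, were called higher in young adult EC. Their sum was 3803.5 to 5544.1 RPKM in infant and 5886.3 to 6437.8 RPKM in young adult libraries for all 16. Many markers of other cell types were lower in the young adult libraries. The 12 fibroblast markers summed to between 310.3 and 1224.6 RPKM in infant and between 14.0 and 28.7 RPKM in young adult libraries, and 11 of them were called lower in young adult EC, with Col3a1, Col1a1 and Col1a2 the most changed. The same held for 9 of 10 mural markers (led by Pdgfrb, Acta2 and Tagln), 7 of 7 erythroid markers (led by Hbb-bt, Hbb-bs and Hba-a1, whose near-identical copies can share reads), 4 of 9 epithelial markers (Krt19, Krt18, Krt8 and Cdh1) and 5 of 13 leukocyte markers (S100a8, Cd79a, Ptprc, Ms4a1 and Cd52). Summed RPKM was 6391 to 11245 in infant and 1783.1 to 8280.8 in young adult libraries for the epithelial list, 338.2 to 537.9 and 142.6 to 568.0 for the leukocyte list, and 9655.9 to 79864 and 822.2 to 1350.7 for the erythroid list. Lyz2 alone gave 275.3 to 467.1 RPKM of the leukocyte sums in infant and 134.3 to 515.5 RPKM in young adult libraries. No marker of these 5 cell types was listed at 0 in all 3 young adult libraries. Infant replicate 2 stood apart, with 2.6 RPKM of the fibroblast gene Pdgfra against 87.2 and 66.8 RPKM in the other infant libraries. Not every fibroblast marker followed, since Dcn (7.6, 19.9 and 8.0 RPKM) and Lum (4.1, 14.4 and 4.7 RPKM) were highest in infant replicate 2. In bulk samples, fewer cells of a type and less RNA per cell cannot be told apart.

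5 of the 10 genes were called lower in young adult EC and 0 were called higher. Calls required, in limma over 12458 tested genes, an adjusted p under 0.05 and a log2 fold change of RPKM + 1 beyond 0.81 in size, the fold threshold of the study. The called genes were Dnmt3a, Uhrf1, Tet1, Gadd45a and Gadd45b. Of all genes tested, 8.10% were called lower and 3.33% higher. At an unadjusted p under 0.05, 7 of the 10 genes were lower and 1, Dnmt1, was higher, beside 25.4% and 15.0% of all genes tested. The median log2 fold change (young adult minus infant) was -0.63 over the 10 genes and -0.07 over all genes tested. The infant and young adult values did not overlap for 9 of the 10 genes, 7 lower and 2 higher in young adult EC, beside 43.4% of all genes tested. Dnmt3a, Uhrf1, Tet1 and Gadd45a had been picked out by the study from these same libraries, so their direction is not independent evidence. The calls of Dnmt3a and Gadd45a held without each library in turn. Those of the other genes did not, and 2 genes remained called without infant replicate 1, as did 3 when either young adult replicate 1 or young adult replicate 2 was left out.

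**Figure D1:**
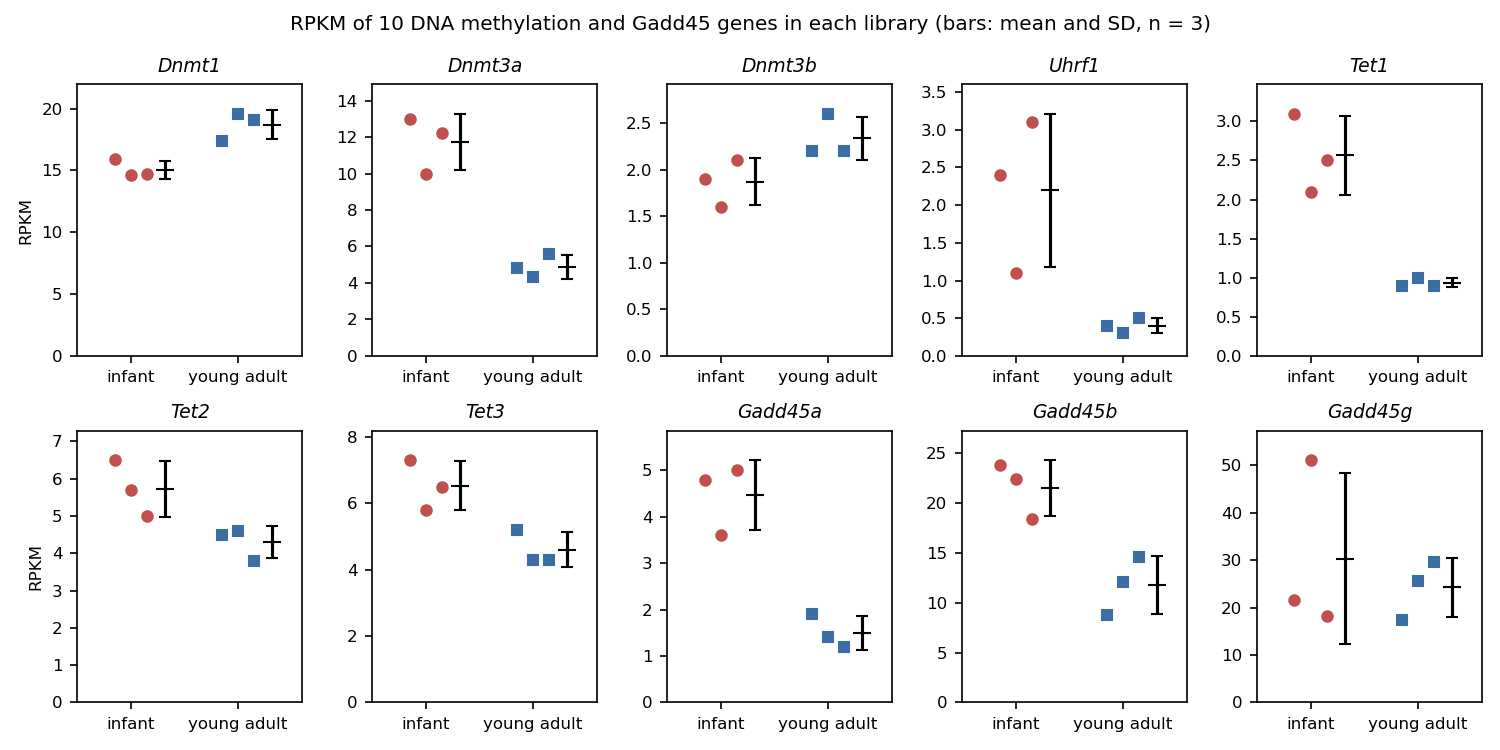
RPKM (vertical axes, each from 0) of the 10 genes in the 3 infant libraries (red circles) and the 3 young adult libraries (blue squares); black bars give the mean and SD of each group. Dnmt3a, Uhrf1, Tet1 and Gadd45a fell to lower values without overlap, Dnmt1 lay higher in the young adult libraries, and the groups overlapped for Gadd45g, with infant replicate 2 far above the other libraries.

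Among the writers, Dnmt3a and Uhrf1 were called lower in young adult EC, whereas the fitted changes of Dnmt1 and Dnmt3b were above 0 and were not called. Dnmt3a, a de novo methyltransferase (chr12:3801559-3914443 in GRCm38.p6, whole gene, plus strand), stood at 13.0, 10.0 and 12.2 RPKM in the infant libraries (replicates 1 to 3, as in all lists of values) and at 4.8, 4.3 and 5.6 RPKM in the young adult libraries. Every infant library lay above every young adult library, and the lowest infant value was above the highest young adult value by more than the SD of either group (1.55 and 0.656 RPKM). The mean fell from 11.7 to 4.90 RPKM, a ratio of 0.418, with a log2 fold change of -1.11 ± 0.13 (SE, limma, adjusted p = 0.00211). The second Dnmt3a row, a transcript that shares exons with the first, gave 11.8, 8.0 and 9.8 RPKM against 3.9, 3.6 and 4.5 RPKM and the same log2 fold change of -1.11. The rows cannot be read as separate isoform levels.

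Dnmt1, the maintenance methyltransferase (chr9:20907206-20959888, minus strand), stood at 15.9, 14.6 and 14.7 RPKM in infant and at 17.4, 19.6 and 19.1 RPKM in young adult EC. All young adult values were above all infant values. The log2 fold change was 0.29 ± 0.09 (95% interval 0.08 to 0.51), and with an adjusted p of 0.0510 in limma it narrowly missed the threshold of 0.05. It was also well under the fold threshold. The sign was positive in each of the 22 alternative settings of scaling, filter and libraries, with values between 0.19 and 0.43. Both ends came from scaling. Rescaled without globin genes, the change was 0.19 (95% interval -0.05 to 0.43, adjusted p = 0.192 in limma). With median scaling it was 0.43 (adjusted p = 0.0147 in limma). Globin genes held 11.0%, 3.41% and 23.5% of the summed RPKM of all genes in infant and 0.307% to 0.487% in young adult libraries. Dnmt1 stood at the 73.4th percentile of all genes in infant and at the 78.0th percentile in young adult libraries.

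Dnmt3b, the other de novo enzyme (chr2:153649411-153687730, plus strand), was low throughout, at 1.9, 1.6 and 2.1 RPKM in infant EC and at 2.2, 2.6 and 2.2 RPKM in young adult EC. The groups were separated by 1 rounding step of 0.1 RPKM. Its log2 fold change of 0.22 ± 0.12 (95% interval -0.06 to 0.50) did not pass the test (limma, adjusted p = 0.215).

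Uhrf1, the partner that guides DNMT1 to newly replicated DNA (chr17:56303337-56323486, plus strand), stood at 2.4, 1.1 and 3.1 RPKM in infant and at 0.4, 0.3 and 0.5 RPKM in young adult EC. Infant replicate 2 had the lowest infant level, still above every young adult value. The ratio of the means was 0.182, and the log2 fold change of RPKM + 1, which understates the change of low genes, was -1.14 ± 0.24 (limma, adjusted p = 0.0155). The adjusted p rose to 0.0617 and 0.0501 when infant replicate 1 or infant replicate 3 was left out, and to 0.0578 and 0.0669 when young adult replicate 1 or young adult replicate 2 was left out. The young adult values are within a few rounding steps of 0.

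The promoters of Dnmt1 and Uhrf1 are shown because the genes act in the same step of maintenance methylation and their fitted changes had opposite signs, although that of Dnmt1 missed the threshold. The windows run from 250 bases before to 50 bases after an annotated transcript start in RefSeq (GRCm38.p6), 5′ to 3′ on the strand of the gene. The letters TTTCGCG or TTTGGCG, forms of the site of E2F factors, which act in the cell cycle, were searched on both strands and are in capitals. They occurred in 2.365% of the 32851 windows of this length and, among the 15 windows of the 10 genes, in 1 of 3 windows of Dnmt1 and in 1 of 2 windows of Uhrf1. The Dnmt1 window is chr9:20952574-20952873 (minus strand) and the Uhrf1 window is chr17:56304063-56304362 (plus strand).
Dnmt1: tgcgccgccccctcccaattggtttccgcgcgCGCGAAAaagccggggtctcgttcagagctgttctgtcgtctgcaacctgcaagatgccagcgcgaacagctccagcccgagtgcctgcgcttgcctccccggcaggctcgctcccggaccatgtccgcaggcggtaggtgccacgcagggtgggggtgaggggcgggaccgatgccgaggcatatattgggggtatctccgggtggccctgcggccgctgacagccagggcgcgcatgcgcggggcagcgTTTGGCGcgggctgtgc
Uhrf1: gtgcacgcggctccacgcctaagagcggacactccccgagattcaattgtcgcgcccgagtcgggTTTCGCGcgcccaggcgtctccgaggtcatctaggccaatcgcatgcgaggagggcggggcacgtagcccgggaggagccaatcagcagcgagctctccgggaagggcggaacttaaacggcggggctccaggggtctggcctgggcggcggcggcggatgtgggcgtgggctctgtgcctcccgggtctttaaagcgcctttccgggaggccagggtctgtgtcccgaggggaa
Dnmt1 held the letters at -218 and at 34 relative to the start, and Uhrf1 held them at -185. A match describes the letters alone. The 15 windows had a median of 22 CpG dinucleotides, against 7 over all windows.

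The ratio between genes within a library does not depend on how the libraries were scaled. The log2 ratio of Dnmt3a to Dnmt1 was -0.29, -0.55 and -0.27 in infant and -1.86, -2.19 and -1.77 in young adult libraries, a difference of -1.57. The share of Dnmt3a in the summed RPKM of the 3 DNA methyltransferases was 40.8% ± 2.29 (SD, n = 3) in infant and 18.9% ± 2.39 in young adult EC, while that of Dnmt1 was 52.7% ± 2.68 and 72.1% ± 1.63. The summed RPKM of the 3 enzymes plus Uhrf1 was 27.3 to 33.2 in infant and 24.8 to 27.4 in young adult libraries. The log2 ratio of Uhrf1 to Dnmt1 was -2.90 ± 0.757 in infant and -5.58 ± 0.404 in young adult libraries, a difference of -2.67. Neither pair of groups overlapped, and each exact two-sided permutation test gave p = 0.1, the smallest that 3 against 3 libraries allow (0.15 after Benjamini-Hochberg adjustment over the 3 ratios computed).

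**Figure D2:**
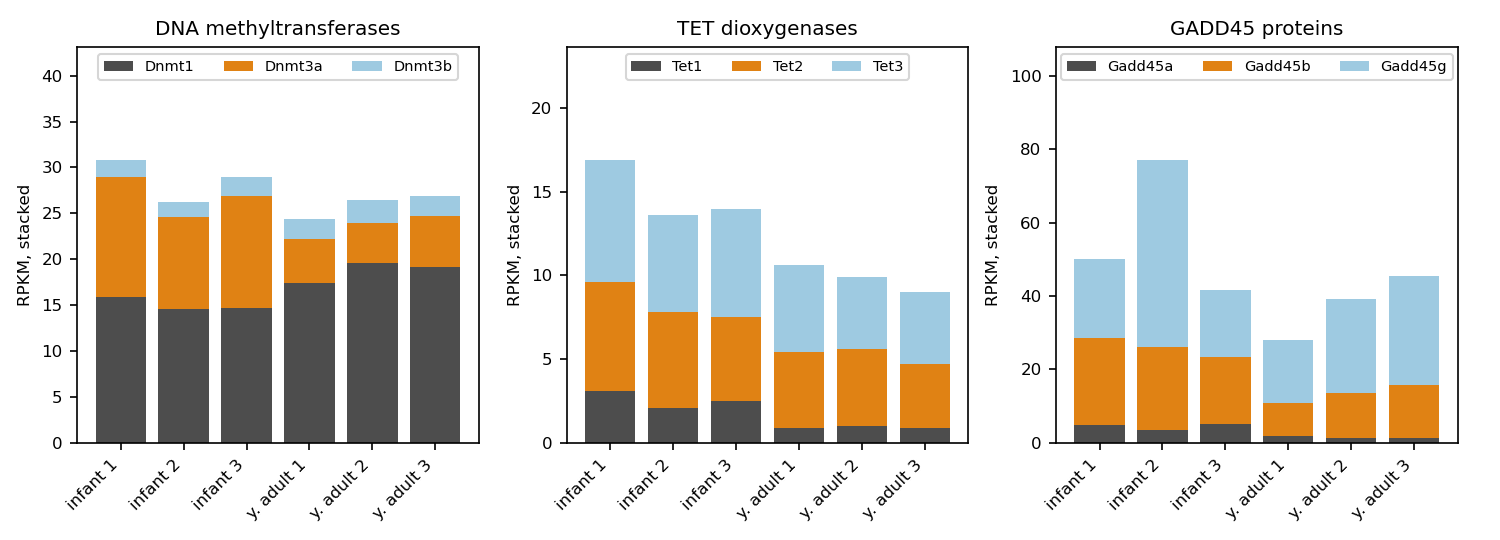
Stacked RPKM (vertical axes, from 0) of the 3 DNA methyltransferases, the 3 TET dioxygenases and the 3 GADD45 genes, 1 bar per library. The Dnmt3a part of the methyltransferase bars shrank from between 10.0 and 13.0 to between 4.3 and 5.6 RPKM while the Dnmt1 part did not, and infant replicate 2 carried 51.1 RPKM of Gadd45g.

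All 3 erasers were lower in young adult EC by their means, and Tet1 alone was called. Tet1 (chr10:62804570-62887469, minus strand), which has a CpG-binding domain, stood at 3.1, 2.1 and 2.5 RPKM in infant and at 0.9, 1.0 and 0.9 RPKM in young adult EC. The groups were 1.1 RPKM apart. The ratio of the means was 0.364 and the log2 fold change -0.87 ± 0.14 (limma, adjusted p = 0.00569). Without infant replicate 1 the log2 fold change of RPKM + 1 was -0.77, under the fold threshold, at an adjusted p of 0.0247 in limma. At these low levels the added 1 makes the change smaller than that of the RPKM.

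Tet3 (chr6:83362373-83457208, minus strand), the eraser of highest level, stood at 7.3, 5.8 and 6.5 RPKM in infant and at 5.2, 4.3 and 4.3 RPKM in young adult EC. It passed the test of the change (limma, adjusted p = 0.0347), but its log2 fold change of -0.43 ± 0.12 was under the fold threshold. With 1 library left out, the adjusted p in limma ran from 0.0176 to 0.1145 and was under 0.05 only without infant replicate 2. It was 0.0896 with median scaling and 0.113 with quantile normalization. Tet2 (chr3:133463677-133545136, minus strand) stood at 6.5, 5.7 and 5.0 RPKM against 4.5, 4.6 and 3.8 RPKM, a log2 fold change of -0.34 ± 0.12 (95% interval -0.62 to -0.06, adjusted p = 0.0729 in limma). The gap between the groups was 0.6 RPKM for Tet3 and 0.4 RPKM for Tet2. Tet1 made up 17.2% ± 1.55 (SD, n = 3) of the summed TET RPKM in infant and 9.53% ± 0.902 in young adult EC, and the sum was 14.8 ± 1.80 and 9.83 ± 0.802 RPKM.

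**Figure D3:**
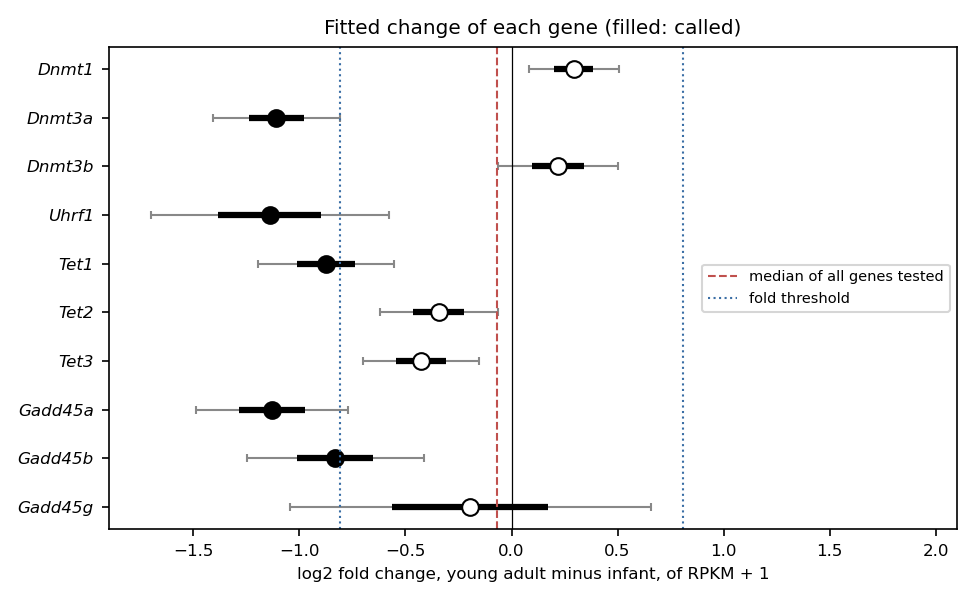
Log2 fold change of RPKM + 1 (horizontal axis, young adult minus infant) of each gene, with the SE as a thick and the 95% interval as a thin bar; filled points were called, the dashed line marks the median of all genes tested (-0.07) and the dotted lines the fold threshold (0.81 on the log2 scale). The 5 filled points lie at or beyond the left threshold, Tet1 and Gadd45b close to it, and Dnmt1 and Dnmt3b lie above 0.

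Of the 3 Gadd45 genes, Gadd45a and Gadd45b were called lower in young adult EC and Gadd45g was not called. Gadd45a, a target of p53 (chr6:67035096-67037407, minus strand), stood at 4.8, 3.6 and 5.0 RPKM in infant and at 1.9, 1.4 and 1.2 RPKM in young adult EC. The groups did not overlap, the ratio of the means was 0.336, and the log2 fold change was -1.13 ± 0.15 (limma, adjusted p = 0.00363). The gene overlaps the long non-coding gene E230016M11Rik on the opposite strand (chr6:67036599-67080652), which stood at 2.0, 1.6 and 1.5 RPKM in infant and at 0.6 RPKM in each young adult library. Without strand, reads from the overlap cannot be told apart between the genes.

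Gadd45b (chr10:80930091-80932204, plus strand), which is induced quickly by stress and cytokines, stood at 23.8, 22.4 and 18.4 RPKM in infant and at 8.8, 12.1 and 14.6 RPKM in young adult EC. The groups did not overlap, but the young adult libraries spread over a range of 5.8 RPKM. The log2 fold change was -0.83 ± 0.18 (limma, adjusted p = 0.0163), just past the fold threshold. The call was lost when infant replicate 1 was left out (-0.76, adjusted p = 0.0623 in limma) or infant replicate 2 (-0.80, under the fold threshold). It was also lost when young adult replicate 1 was left out (-0.65, under the fold threshold) or young adult replicate 2 (-0.86, adjusted p = 0.0616 in limma). Of 26 immediate early and dissociation genes, which respond to tissue digestion, 10 were called lower, led by Nr4a1, Fos and Egr1, and 1 (Hspb1) was called higher in young adult EC. Their summed RPKM was 2125.5 to 2468.8 in infant and 1418.8 to 1828.1 in young adult libraries, and the part of digestion in the Gadd45b values was not tested.

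Gadd45g (chr13:51846675-51848475, plus strand) had the highest mean of the 10 genes in both groups, with 21.5, 51.1 and 18.3 RPKM in infant EC against 17.4, 25.7 and 29.7 RPKM in young adult EC. The groups overlapped, and the infant mean of 30.3 ± 18.1 RPKM (SD, n = 3) rested on infant replicate 2, which stood 2.57 times above the mean of the other infant libraries. The log2 fold change of -0.20 ± 0.37 did not pass the test (limma, adjusted p = 0.726), with a 95% interval from -1.05 to 0.66. It was 0.25 when infant replicate 2 was left out and 0.02 when young adult replicate 1 was left out. No direction can be given for Gadd45g.

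The log2 ratio of Gadd45g to Gadd45a was 2.16, 3.83 and 1.87 in infant and 3.20, 4.20 and 4.63 in young adult libraries. The ratio of infant replicate 2 lay among the young adult ratios. The difference of 1.39 had p = 0.2 in the exact two-sided permutation test, and 0.2 after adjustment over the 3 ratios.

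The promoter windows of the 3 Gadd45 genes are shown so that the members of the family can be compared. Capitals mark the octamer ATGCAAAT (in 1.735% of all windows) and the TATA box letters TATAAA (in 13.62%), both searched on either strand. The windows are chr6:67037358-67037657 (minus strand) for Gadd45a, chr10:80929841-80930140 (plus strand) for Gadd45b and chr13:51846425-51846724 (plus strand) for Gadd45g.
Gadd45a: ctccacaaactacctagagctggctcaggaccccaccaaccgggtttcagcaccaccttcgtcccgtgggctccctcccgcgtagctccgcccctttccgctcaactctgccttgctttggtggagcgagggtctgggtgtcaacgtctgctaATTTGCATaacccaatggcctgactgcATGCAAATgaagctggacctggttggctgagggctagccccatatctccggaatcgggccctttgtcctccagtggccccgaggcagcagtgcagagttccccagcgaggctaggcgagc
Gadd45b: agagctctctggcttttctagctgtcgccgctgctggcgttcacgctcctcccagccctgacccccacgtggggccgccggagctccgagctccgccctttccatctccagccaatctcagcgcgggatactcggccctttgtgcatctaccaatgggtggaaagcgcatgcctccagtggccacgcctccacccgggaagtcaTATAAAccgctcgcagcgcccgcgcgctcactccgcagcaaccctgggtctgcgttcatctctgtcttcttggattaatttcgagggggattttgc
Gadd45g: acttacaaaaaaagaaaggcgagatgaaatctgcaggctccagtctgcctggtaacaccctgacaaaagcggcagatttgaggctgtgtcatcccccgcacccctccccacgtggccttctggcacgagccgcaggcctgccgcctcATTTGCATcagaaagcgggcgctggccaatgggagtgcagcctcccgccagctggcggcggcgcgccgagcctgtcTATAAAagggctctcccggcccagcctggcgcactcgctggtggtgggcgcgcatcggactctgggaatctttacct
The octamer occurred in Gadd45a at -97 and at -70 and in Gadd45g at -103, and the TATA letters in Gadd45b at -46 and in Gadd45g at -27. None of the 15 windows of the 10 genes held the AP-1 letters TGACTCA or the CRE letters TGACGTCA, which 5.202% and 1.79% of all windows hold. Nothing about a factor follows from these letters.

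Ordered by mean RPKM, the infant libraries gave Gadd45g, Gadd45b, Dnmt1, Dnmt3a, Tet3, Tet2, Gadd45a, Tet1, Uhrf1 and Dnmt3b. Neighbours whose libraries overlapped were Gadd45g and Gadd45b, Tet3 and Tet2, Tet2 and Gadd45a, Tet1 and Uhrf1, and Uhrf1 and Dnmt3b. In the young adult libraries the order was Gadd45g, Dnmt1, Gadd45b, Dnmt3a, Tet3, Tet2, Dnmt3b, Gadd45a, Tet1 and Uhrf1, with overlap between Gadd45g and Dnmt1, between Dnmt3a and Tet3, and between Tet3 and Tet2. Dnmt3a went from a level above all TET genes in the infant libraries to one that overlapped Tet3 (4.3 to 5.2 RPKM). Uhrf1 was the lowest of the 10 genes in each young adult library.

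Infant replicate 2 had lower sums of the mitotic, mural and fibroblast lists than the other infant libraries, and the 10 genes can be read in it beside those lists. Its sums of the epithelial (11245 RPKM), leukocyte (537.9 RPKM) and endothelial (5544.1 RPKM) lists were the highest of the infant libraries. Most of the leukocyte sum was Lyz2, with 275.3, 467.1 and 330.2 RPKM in the infant libraries. Every other leukocyte marker was highest among infants in replicate 3, such as Ptprc with 4.2, 3.0 and 7.0 RPKM. The 18 G2 and mitosis genes summed to 73.9, 16.8 and 70.6 RPKM in the infant and to 5.7, 6.4 and 7.6 RPKM in the young adult libraries, and the 10 mural markers to 238.1, 70.1 and 238.0 RPKM against 12.1, 15.1 and 16.5 RPKM. The level in infant replicate 2 was 0.4 times the mean of the other infant libraries for Uhrf1 and between 0.735 and 0.841 times for Gadd45a, Tet1, Dnmt3a, Dnmt3b and Tet3. It was between 0.954 and 1.06 times for Dnmt1, Tet2 and Gadd45b, and 2.57 times for Gadd45g. Relative to the young adult mean, infant replicate 2 stood 2.04 times as high for Dnmt3a, 2.25 times for Tet1, 2.40 times for Gadd45a, 1.89 times for Gadd45b and 2.75 times for Uhrf1. The mean of the other infant libraries stood 2.57, 3, 3.27, 1.78 and 6.88 times as high for the same genes. Infant replicate 2 still had higher sums of the fibroblast, mural and mitotic lists than any young adult library, and the part of these cells in the values was not tested.

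**Figure D4:**
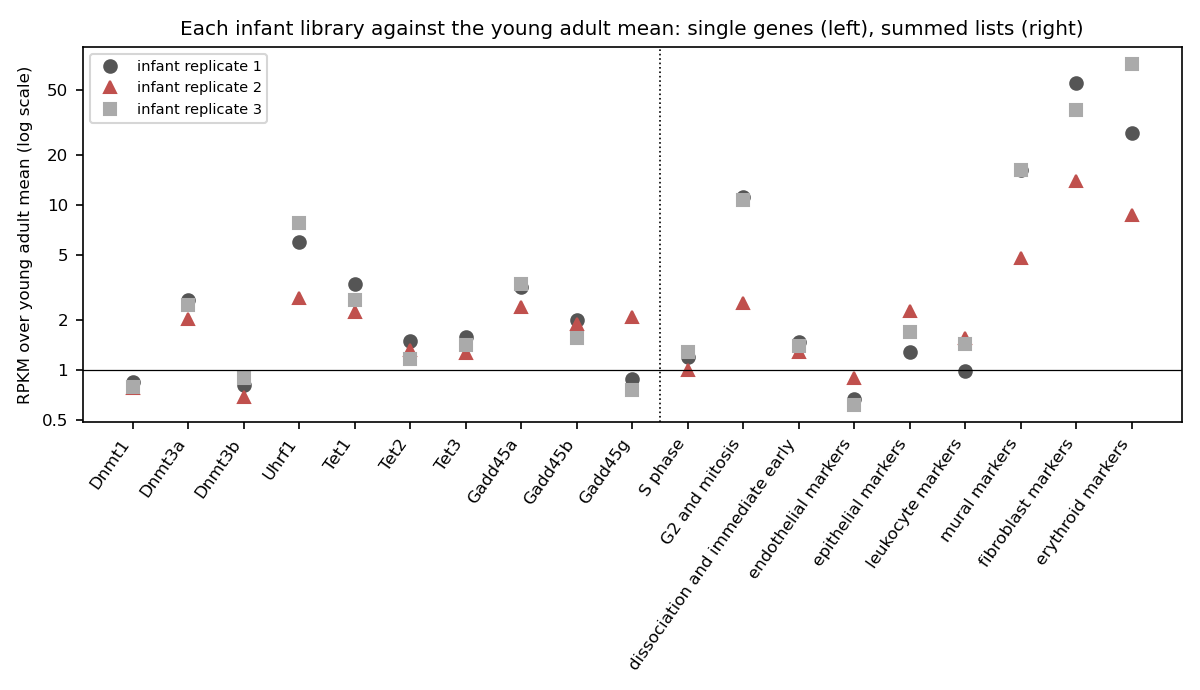
RPKM of each infant library divided by the young adult mean (vertical axis, log scale) for the 10 genes on the left and for the summed RPKM of 9 gene lists on the right; the line at 1 marks the young adult mean. Infant replicate 2 (red triangles) is the lowest infant library for Dnmt1, Dnmt3a, Dnmt3b, Uhrf1, Tet1, Tet3 and Gadd45a, by little for Dnmt1. It is also lowest for the S phase, mitotic, immediate early, mural, fibroblast and erythroid lists. It lies between the others for Tet2 and Gadd45b. It is the highest infant library for Gadd45g and for the endothelial, epithelial and leukocyte lists, the leukocyte list through Lyz2 alone.

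Related genes were counted in lists that hold none of the 10 genes. Of 5 tested genes listed with maintenance methylation (Uhrf2, Hells, Usp7, Pcna and Trdmt1, the last of which encodes a tRNA methyltransferase of the DNMT family), 0 were called in either direction in limma, with a median log2 fold change of 0.11. Fitted changes were above 0 for 3 of them and below 0 for 2. Hells stood at 2.4, 0.9 and 1.9 RPKM in infant and at 0.6, 0.8 and 0.6 RPKM in young adult libraries. Its log2 fold change was -0.67 ± 0.22 (limma, adjusted p = 0.0575). Of 10 methyl-CpG reader genes, such as the Mbd genes, 0 were called, with a median of -0.08. Of 15 genes of the methyl donor cycle, which supplies the methyl group through S-adenosylmethionine, 0 were called, with a median of -0.01. An unadjusted p under 0.05 was reached by 1, 3 and 4 genes of these lists, respectively.

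Of 13 tested genes of base excision repair and cytosine deamination, 1 was called lower and 0 higher, with a median log2 fold change of -0.21. The called gene was Neil3, a DNA glycosylase of dividing cells, with 2.4, 0.5 and 1.4 RPKM in infant libraries and listed at 0 in the 3 young adult libraries (limma, adjusted p = 0.0204). Of 11 TET cofactor and partner genes, 1 was called lower and 0 higher, with a median of -0.26. It was Cxxc5, whose protein has a CXXC domain, a fold that binds CpG, with 1.9, 0.9 and 1.7 RPKM against 0.2, 0.3 and 0.2 RPKM (log2 fold change -0.997 ± 0.19, adjusted p = 0.0105). Of 16 p53 targets and effectors of GADD45 proteins, 2 were called lower and 0 higher, with a median of -0.17. They were the mitotic kinase gene Cdk1 (-1.49 ± 0.35, adjusted p = 0.0210) and its cyclin gene Ccnb1 (-1.68 ± 0.40, adjusted p = 0.0218), whose proteins bind GADD45 proteins and which are also in the mitotic list. Both genes were lowest among infants in replicate 2, with 0.7 and 0.6 RPKM. Of the 16 genes, 11 had fitted changes below 0 and 5 above. Cdkn1a of this list was not called. It stood at 24.7, 85.5 and 23.6 RPKM in infant and at 76.2, 136.5 and 92.0 RPKM in young adult libraries. Its log2 fold change was 1.39 ± 0.47 (limma, adjusted p = 0.0653).

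The cell cycle lists stood beside these. Of 27 tested S phase genes, 3 were called lower and 0 higher (Rrm2, Tk1 and Gins2), with a median log2 fold change of -0.29. Of 18 G2 and mitosis genes, 15 were called lower and 0 higher, with a median of -1.42, led by Top2a, Ccnb2 and Birc5. The proliferation marker Mki67 stood at 4.6, 0.7 and 4.1 RPKM in infant and at 0, 0 and 0.1 RPKM in young adult libraries.

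**Figure D5:**
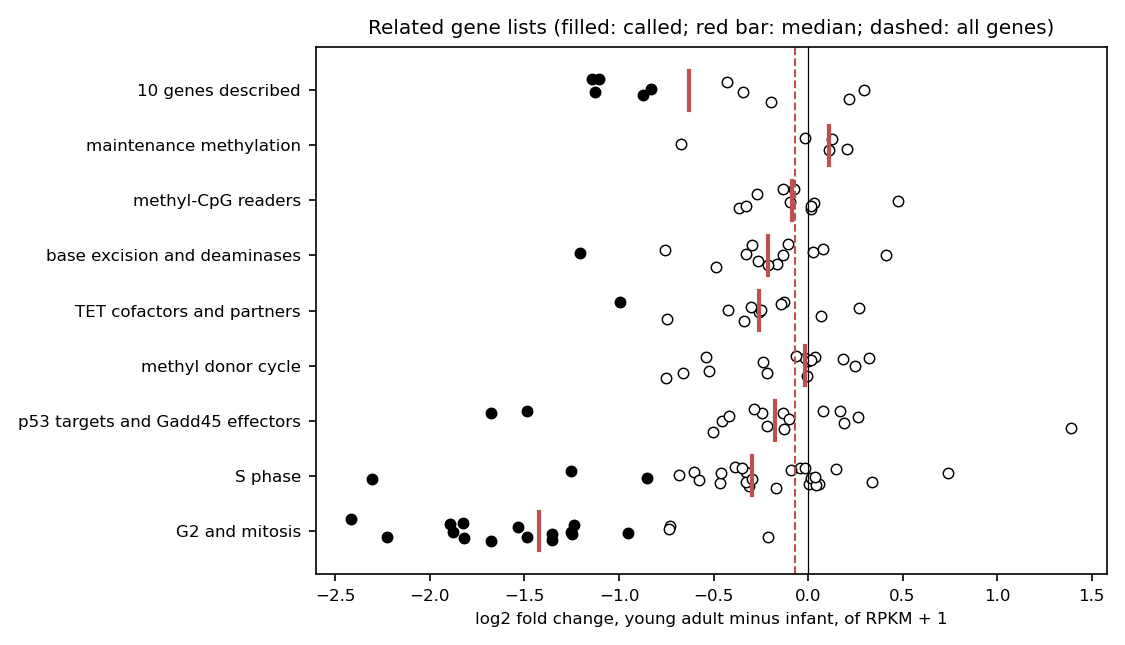
Change on the log2 scale of RPKM + 1 (horizontal axis, young adult minus infant) of the 10 genes and of the tested genes of 8 related lists, 1 point per gene; filled points were called, red bars give list medians and the dashed line the median of all genes tested. The 10 genes have a median of -0.63, the lists of maintenance, reader and methyl donor genes have no filled point, and 15 of 18 mitotic genes are filled.

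The genes most like the leading member of each role were found by Pearson's r of log2(RPKM + 1) over the 6 libraries, a description in which all points share the libraries and the age groups. Most like Dnmt1 were Ift172 (r = 0.992), Zbtb40 (r = 0.989) and Gadd45gip1 (r = 0.986), the last with 10.5, 9.9 and 10.1 RPKM in infant EC against 11.4, 12.9 and 13.1 RPKM in young adult EC. Most like Tet3 were Styx (r = 0.999), Gtf3c3 (r = 0.995) and Mob1b (r = 0.994). Among the genes most like Gadd45g were AW011738 (r = 0.994) and Itprip (r = 0.978), and these rest on infant replicate 2, where each had its highest value. An r of at least 0.95 was reached by 55 genes for Dnmt1, 220 for Tet3 and 23 for Gadd45g. Among the 10 genes, Dnmt3a was most like Tet1 (r = 0.973) and Gadd45a most like Tet3 (r = 0.964).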

How the data were processed

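RNA-seq of EC sorted from mouse lung was analysed in 6 libraries, 3 per age group, with group and number taken from the sample titles. The authors extracted RNA with a PicoPure kit, amplified cDNA with the SMARTer Ultra Low kit, aligned reads to mm10 with STAR, counted on RefSeq and tested with DESeq2. They deposited RPKM per RefSeq transcript, rounded to 1 decimal. The program that computed RPKM and the STAR version are not given in the sources used here. The rounding did not allow reads to be recovered, so library depth is unknown and no counting interval was given.

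For each gene the row of highest mean RPKM was kept, after 24 rows whose symbols had become dates were restored. Because RPKM are not counts, limma 3.58.1 (R 4.3.3, lmFit, eBayes with trend, age group only) was run on log2(RPKM + 1) for the 12458 genes that reached an RPKM of 1 in any library, with Benjamini-Hochberg adjustment. The filter and the size of the fold threshold follow the study, but here the threshold was put on RPKM + 1. The limma script was tested on simulated data. The 3 ratios were compared with exact permutation tests (SciPy). Promoters and positions are from RefSeq (GRCm38.p6, the coordinates of mm10), and all 10 symbols matched.

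The genes, lists, ratios and motifs were chosen with earlier results of these data known. Named genes are the 10 genes, the called genes of each list (the 3 most changed where more than 5 were called), the 3 genes most correlated with the leading gene of each role, and the sort checks Ptprc, Pecam1, Cd34, Pdgfra and Mki67. 1 gene that this rule names is not reported here. Ddx3y, Xist, Dcn, Lum, Lyz2, Cdkn1a and E230016M11Rik were named, and Hells was described, after their values were seen. Alternatives were pseudocounts of 0.1 and 5, other filters, scalings and variance models, a replicate block, other handling of transcript rows, other call rules and leaving out each library.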

Additional observations from a re-analysis of the deposited data

How the results depend on the processing

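Of the 5 genes called lower, 0 were called with a pseudocount of 5 (median log2 fold change of the 10 genes -0.31) or when limma's treat tested for a change beyond the fold threshold, and 3 with median scaling (median -0.50) or quantile normalization (median -0.44). With the pseudocount of 5 and both scalings, all 5 kept an adjusted p under 0.05 in limma, and calls were lost by the fold threshold alone. A pseudocount of 5 by itself shrinks the fold change of low genes. With it the adjusted p of the 5 genes in limma was 0.0031 to 0.0257. Leaving out 1 library gave 2 to 5 genes called lower, 0 called higher and a median of -0.68 to -0.56. These alternatives also moved the calls over all genes, from 1009 lower and 415 higher to 338 and 240 (pseudocount 5), 124 and 52 (treat), 611 and 532 (quantile normalization), 2022 and 1154 (adjusted p alone) and 514 to 1308 lower with 312 to 566 higher (1 library left out). Median scaling and quantile normalization moved the median of all genes from -0.07 to 0.04, and the median of the 10 genes stayed 0.27 to 0.61 below it in every setting.

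Gadd45g turned to 0.088 with array weights and ranged from -0.47 to 0.25 with 1 library left out, above 0 when that was infant replicate 2 or young adult replicate 1. The other 9 genes kept their sign in all 22 alternatives. The 3 ratios also kept their sign under each of their alternatives, with differences without 1 library of -1.66 to -1.45 for Dnmt3a to Dnmt1, -3.09 to -2.35 for Uhrf1 to Dnmt1 and 1.01 to 1.99 for Gadd45g to Gadd45a. The cause of these shifts was not tested. Libraries of the same replicate number were not more alike than others (correlation of deviations 0.028, -0.110 and -0.021, against -0.122 to 0.111 for unlike numbers). With 3 libraries per group this cannot exclude shared preparation. With the replicate block 5 genes were called lower and 0 higher. Values under about 1 RPKM are limited by the rounding step of 0.1.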

Other observations

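In the lists of methylation, repair and cell cycle genes, those that passed the adjusted p but not the fold threshold were looked at after their values were seen. Tdg, the glycosylase that removes the oxidised bases made by TET enzymes, had a mean of 11.8 ± 0.451 RPKM (SD, n = 3) in infant and 6.60 ± 1.08 RPKM in young adult EC, a log2 fold change of -0.76 ± 0.12 (limma, adjusted p = 0.00564). Ezh2, the histone methyltransferase of the polycomb complex, had 3.93 ± 0.404 and 1.93 ± 0.115 RPKM (-0.75 ± 0.11, adjusted p = 0.00456). Of the methyl donor cycle, Mthfd1l and Shmt1 of folate metabolism were lower (-0.75 and -0.54, adjusted p = 0.0103 and 0.0394) and Mat2a, which makes S-adenosylmethionine, was higher (0.32, adjusted p = 0.0475). Zbtb4, a methyl-CpG reader, was higher in young adult EC (0.48 ± 0.13, adjusted p = 0.0299). Cul4b, of the TET partner list, was lower (-0.42 ± 0.11, adjusted p = 0.0275). The S phase genes went both ways: Prim1 of the DNA primase was higher (0.74 ± 0.10, adjusted p = 0.00339), as was Mcm3 of the replicative helicase (0.34 ± 0.09, adjusted p = 0.0369), while Rfc5 (-0.60), Slbp (-0.57) and Dut (-0.68) were lower, with adjusted p of 0.0183, 0.0146 and 0.0347 in limma. The mitotic kinase gene Aurka was lower (-0.73 ± 0.22, adjusted p = 0.0425).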
